A study of Mus musculus with 6 samples.

Results

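The genes described here are the complement C1q chains C1qa, C1qb and C1qc together with 7 genes that mark resident macrophages of the marrow, namely Vcam1, Cd163, Mertk, Axl, Mrc1, Siglec1 and Cd68. They were chosen by symbol. Every probe set whose single gene symbol in the authors' deposited table equals 1 of these 10 names was taken, which gave 18 of the 45101 probe sets of an Affymetrix mouse array, for 10 of 20678 named genes. The arrays measured RNA of whole bone marrow from c-Jun inducible mice. The 3 induced arrays came from such mice after 24 h (day 1) on drinking water that held 1 mg/ml doxycycline, an antibiotic that switches on the inducible gene. The 3 control arrays came from c-Jun inducible mice before induction (day 0). Mice were 8 weeks old, and each array held RNA pooled from 3 mice, so the spread between arrays is that between pools. The comparison asks which marrow genes differ a day after c-Jun, which forms part of the transcription factor AP-1, is switched on. The inducible construct, the promoter that drives it and the strain are not given in the sources used here. The tag R-K in every sample title is not explained there, and no mice that received doxycycline without an inducible c-Jun were analysed. Effects of doxycycline, of c-Jun and of the day therefore cannot be told apart.

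C1q is the recognition molecule of the classical complement pathway, built from A, B and C chains, and unlike most complement proteins it is made mainly by macrophages and dendritic cells rather than by the liver. Resident marrow macrophages take up dying cells and the nuclei that erythroblasts expel, recycle their iron, and sit at the centre of erythroblastic islands, where red cell precursors mature around them. In the mouse these island macrophages are known for VCAM1, CD169 (the product of Siglec1) and F4/80 (the product of Adgre1) on their surface. C1q binds to dying cells and helps macrophages to take them up, and the receptor kinases MERTK and AXL do the same through bridging proteins.

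The 3 C1q genes lie next to each other on chromosome 4 in the order C1qb, C1qc and C1qa, with 0 other genes between them in the RefSeq annotation of mouse assembly GRCm38.p6. The RefSeq promoter table held 7 of the 10 genes, all but C1qa, Vcam1 and Siglec1. The 250 bases before the gene start are shown for C1qb and Cd68, the genes with the largest changes below, and for C1qc, the neighbour of C1qb. All 3 are on the minus strand and are written 5′ to 3′ as the gene is read: C1qb at chr4:136886201-136886450, C1qc at chr4:136892915-136893164 and Cd68 at chr11:69666171-69666420 (GRCm38.p6). Capitals mark matches to the AP-1 motif TGANTCA and to GAGGAA, the core of sites for the macrophage factor PU.1, searched on both strands.
C1qb: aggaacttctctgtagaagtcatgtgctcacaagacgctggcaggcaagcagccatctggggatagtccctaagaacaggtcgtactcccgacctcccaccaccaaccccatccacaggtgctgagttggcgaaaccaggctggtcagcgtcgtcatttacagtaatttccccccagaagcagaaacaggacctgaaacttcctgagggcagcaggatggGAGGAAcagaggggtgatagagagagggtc
C1qc: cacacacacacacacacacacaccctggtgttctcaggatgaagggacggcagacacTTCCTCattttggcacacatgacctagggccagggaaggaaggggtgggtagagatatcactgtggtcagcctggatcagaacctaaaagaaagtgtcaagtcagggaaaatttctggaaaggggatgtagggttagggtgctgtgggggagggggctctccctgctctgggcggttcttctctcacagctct
Cd68: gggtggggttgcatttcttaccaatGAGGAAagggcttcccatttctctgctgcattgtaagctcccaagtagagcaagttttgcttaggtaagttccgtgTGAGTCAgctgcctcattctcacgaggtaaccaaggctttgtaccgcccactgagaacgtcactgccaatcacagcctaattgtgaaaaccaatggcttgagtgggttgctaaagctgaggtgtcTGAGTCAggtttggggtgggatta
The Cd68 stretch held 2 matches to the AP-1 motif, 149 and 24 bases before the gene start, while the C1qb and C1qc stretches held 0. Over all 32851 promoters of the table, 6.75% held at least 1 such match in the same window and 0.338% held 2 or more. The related motif TGACGTCA, which shares no match with the first in these windows, was in 0 of the 7 genes and in 1.55% of all promoters. GAGGAA was found in C1qb, C1qc, Cd68, Axl and Mrc1, and in 23.3% of all promoters. These are matches of letters only, and no match says nothing about the factor.

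Values below are deposited signals in arbitrary units, made with the MAS5 algorithm. Background was set at a signal of 2, the maximum over all arrays of the 27 probe sets for bacterial control transcripts, and 76.9% of all signals did not exceed it. Different probe sets bind differently, so levels are compared between arrays and never between genes. Tests were made with limma on log2(signal + 16), induced minus control, and a probe set was called at a Benjamini-Hochberg adjusted p under 0.05 over 31526 probe sets; on that scale the change of a dim gene is understated. Summed signal per array was 222930 to 278500 in induced arrays and 189287 to 214237 in controls. One array, control 2, stood apart with 346 signals of 0, against 4653 to 7818 on the other arrays. Probe sets brighter than 10 on average, 2868 in all, shifted by a median of 0.24 on the log2 scale with signals as deposited and by 0.06 with quantile-normalized ones, and changes are to be read against that shift. For Gapdh, the 5′ signal was 27.5% ± 1.58 of the 3′ signal in induced arrays and 16.5% ± 5.5 in controls (SD, n = 3 each). The two-sided exact permutation test gave p = 0.1, which is its lower limit with 3 arrays a group. The part of this RNA quality measure in the results below was not tested.

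After 24 h of induction C1qb, Cd68 and Vcam1 were called higher, and the other 7 genes gave no call in either direction. C1qb was called by its brightest probe set alone. The Vcam1 call held under 3 of 15 alternative settings and was lost in each of 3 scalings. Of 18 probe sets 3 were called higher, and 4.19% of all those tested were. By the brightest probe set of each gene, 3 of 10 were called higher and 0 lower (0 lower also at an unadjusted p under 0.05, and 0 with an intensity trend in limma), where 5.14% of 16239 genes over the whole array were called higher and 1.82% lower. All 3 have a mean signal over 10, and among the 1913 genes of the array with such a signal 30.1% were called higher and 9.46% lower. That mean is taken over all 6 arrays. C1qb and Cd68 pass the cut through the induced arrays, as their control means were 4.87 and 6.23. Other genes that differ can enter the 1913 in the same way. The median log2 change of the 10 genes was 0.08, against 0.00 over all genes tested and 0.20 over those 1913. Of the 18 probe sets, 17 passed the filter on low values, 5 were over background on all 6 arrays, 9 on some arrays, and 4 on none. In whole marrow, more cells of a type and more RNA per cell cannot be told apart. Some markers of other cells, given further on, were also called.

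**Figure D1:**
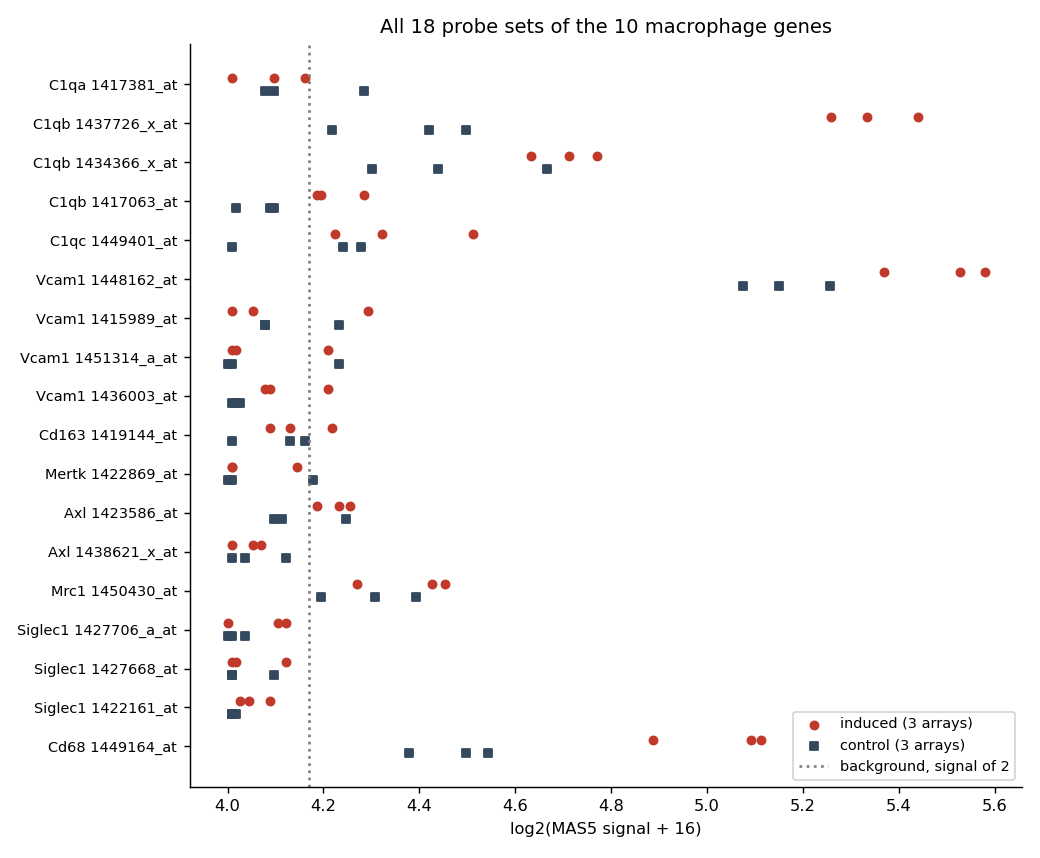
Signals of all 18 probe sets on the log2(MAS5 signal + 16) scale, 1 row per probe set, with induced arrays as circles above control arrays as squares and the background signal of 2 as a dotted line. C1qb 1437726_x_at, Cd68 1449164_at and Vcam1 1448162_at have separate groups, and their induced arrays stand clear of background. Control 1 of C1qb 1437726_x_at, at 2.6, lies near the line, as do most other rows. Positions in different rows are not comparable levels.

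C1qb encodes the B chain of C1q and had 3 probe sets, which did not behave alike. Probe set 1437726_x_at read 27.4, 22.3 and 24.3 in induced arrays, against 2.6, 6.6 and 5.4 in controls. Every induced array was thus more than 3 times as high as the highest control. Its mean was 24.7 ± 2.57 in induced arrays and 4.87 ± 2.05 in controls (SD, n = 3 each), a ratio of 5.07. The log2 change of (signal + 16) was 0.97 with a standard error of 0.08 (limma, adjusted p = 0.000168), and this was rank 99 by p of the 31526 probe sets. In the authors' deposited table the ratio, induced over control, was 5.12 (unadjusted p 0.00241), and this probe set is in their list of at least 2-fold differences.

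The other C1qb probe sets moved less. Probe set 1434366_x_at read 10.2, 11.3 and 8.8 in induced arrays and 5.7, 9.4 and 3.7 in controls, so that control 2 lay above the lowest induced array. Its ratio was 1.61 (log2 change 0.24, SE 0.09, limma adjusted p = 0.224), and without control 2 it was called (log2 change 0.33, adjusted p = 0.0395). Probe set 1417063_at read 3.5, 2.2 and 2.3 in induced arrays and 1.1, 0.2 and 1.0 in controls. All its controls were below background and all its induced arrays just above, at least 1.33-fold higher, without a call (log2 change 0.15, SE 0.05, limma adjusted p = 0.165). The suffix _x_at marks probe sets with some probes that also match other transcripts, which is the case for the 2 brighter probe sets of C1qb.

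C1qc and C1qa, which encode the C and A chains, were each read by a single dim probe set. C1qc read 6.8, 4.0 and 2.7 in induced arrays and 0.1, 3.4 and 2.9 in controls. Its groups overlapped (ratio 2.11; log2 change 0.18, SE 0.09, limma adjusted p = 0.451). C1qa read 1.9, 0.1 and 1.1 in induced arrays and 0.9, 3.5 and 1.1 in controls, at or under background on every array but control 2 (log2 change -0.06, SE 0.07, limma adjusted p = 0.790). A parallel change of the 3 chains could therefore be neither shown nor set aside at these signals.

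**Figure D2:**
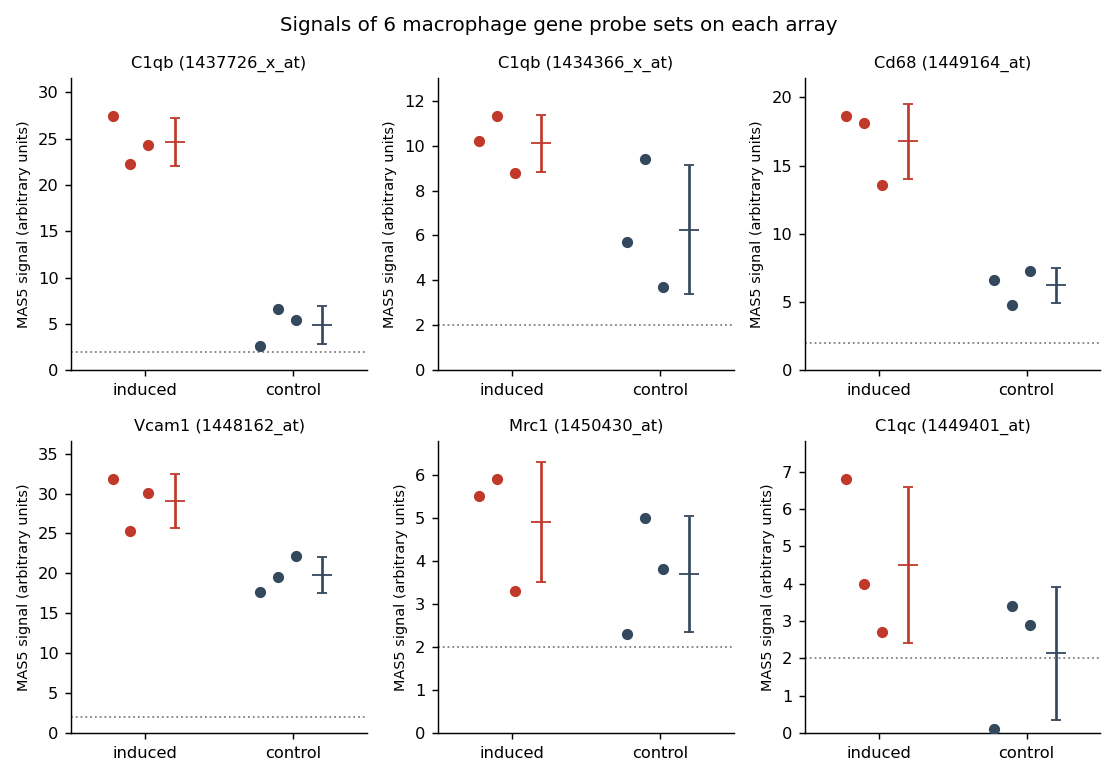
MAS5 signal (arbitrary units, linear axes from 0) of 6 probe sets on each of 3 induced and 3 control arrays, with the mean and SD beside the points and background as a dotted line. The groups are separate for C1qb 1437726_x_at, Cd68 and Vcam1, and overlap for C1qb 1434366_x_at, Mrc1 and C1qc.

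Cd68 encodes macrosialin, a glycoprotein of the lysosomes and endosomes of macrophages that monocytes and other phagocytes also carry. Its only probe set read 18.6, 18.1 and 13.6 in induced arrays, against 6.6, 4.8 and 7.3 in controls, and the groups did not overlap. The mean was 16.8 ± 2.75 in induced arrays and 6.23 ± 1.29 in controls (SD, n = 3 each), a ratio of 2.69. The log2 change was 0.56 with a standard error of 0.07 (limma, adjusted p = 0.00208), and the call was lost at a pseudocount of 1 (adjusted p = 0.156). In the authors' deposited table the ratio, induced over control, was 4.24 (unadjusted p 0.00326), and Cd68 is listed there among the 2-fold differences.

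Vcam1 encodes an adhesion molecule that binds the integrin VLA-4 of erythroblasts and other blood cells, and besides macrophages it is made by marrow stromal and endothelial cells. Probe set 1448162_at read 31.8, 25.3 and 30.1 in induced arrays and 17.7, 19.5 and 22.2 in controls. The groups were separate by a narrow gap. The mean was 29.1 ± 3.37 in induced arrays and 19.8 ± 2.26 in controls (SD, n = 3 each), a ratio of 1.47 (log2 change 0.33, SE 0.07, limma adjusted p = 0.0244). This call was not stable. It was lost without induced 1 (adjusted p = 0.0846), induced 3 (0.104), control 1 (0.0914) or control 2 (0.0959), and after quantile normalization the log2 change was 0.16 (adjusted p = 0.0945). The other 3 probe sets of Vcam1 were near background, with signals of 0.1 to 3.6 in induced arrays and 0.0 to 2.8 in controls, and none was called. Among these, 1436003_at read 2.5, 1.0 and 0.9 in induced arrays and 0.3, 0.2 and 0.1 in controls, without overlap but with 1 array over background.

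The receptors for dying cells and scavenger receptors gave no call. Mrc1, the mannose receptor, read 5.5, 5.9 and 3.3 in induced arrays and 2.3, 5.0 and 3.8 in controls, over background throughout and overlapping (ratio 1.32; log2 change 0.09, SE 0.07, limma adjusted p = 0.701). For Mrc1 the ratio in the authors' deposited table, induced over control, was 1.63 (unadjusted p 0.00981). Other uncalled probe sets with an unadjusted p under 0.05 there were C1qb 1417063_at (ratio 1.69, p 0.0107) and Cd163 (1.25, 0.0179). Axl 1423586_at (1.36, 0.0291) and Vcam1 1415989_at (1.40, 0.0342) were the rest. Ratios under 1 were given for Axl 1438621_x_at (0.965) and Siglec1 1427668_at (0.934). Axl probe set 1423586_at read 2.2, 2.8 and 3.1 in induced arrays and 3.0, 1.1 and 1.3 in controls (limma, adjusted p = 0.680). These arrays overlap through control 1. The other Axl probe set had signals of 0.1 to 0.8 in induced arrays and 0.1 to 1.4 in controls. Mertk read 0.1, 1.7 and 0.1 in induced arrays and 2.1, 0.1 and 0.0 in controls (limma, adjusted p = 0.980), with control 1 alone over background.

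Cd163, the receptor that clears haemoglobin bound to haptoglobin, read 1.5, 2.6 and 1.0 in induced arrays and 1.5, 1.9 and 0.1 in controls (limma, adjusted p = 0.849). Only induced 2 was over background. Siglec1, the sialic acid receptor sialoadhesin, had 3 probe sets at or under background on all 6 arrays, with signals of 0.0 to 1.4 in induced arrays and 0.0 to 1.1 in controls. Of these, 1422161_at fell below the filter and was not tested; it read 1.0, 0.3 and 0.5 in induced arrays and 0.1, 0.1 and 0.2 in controls, separate groups at a level that background does not distinguish from 0. So for Siglec1, Mertk, Cd163, C1qa and the dim probe sets of Axl and Vcam1 a difference was not detectable at these signals. Over the tested probe sets of the 10 genes, groups did not overlap in 5 of 17, all higher in induced arrays, where 10.9% of all probe sets tested were separate in that direction.

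**Figure D3:**
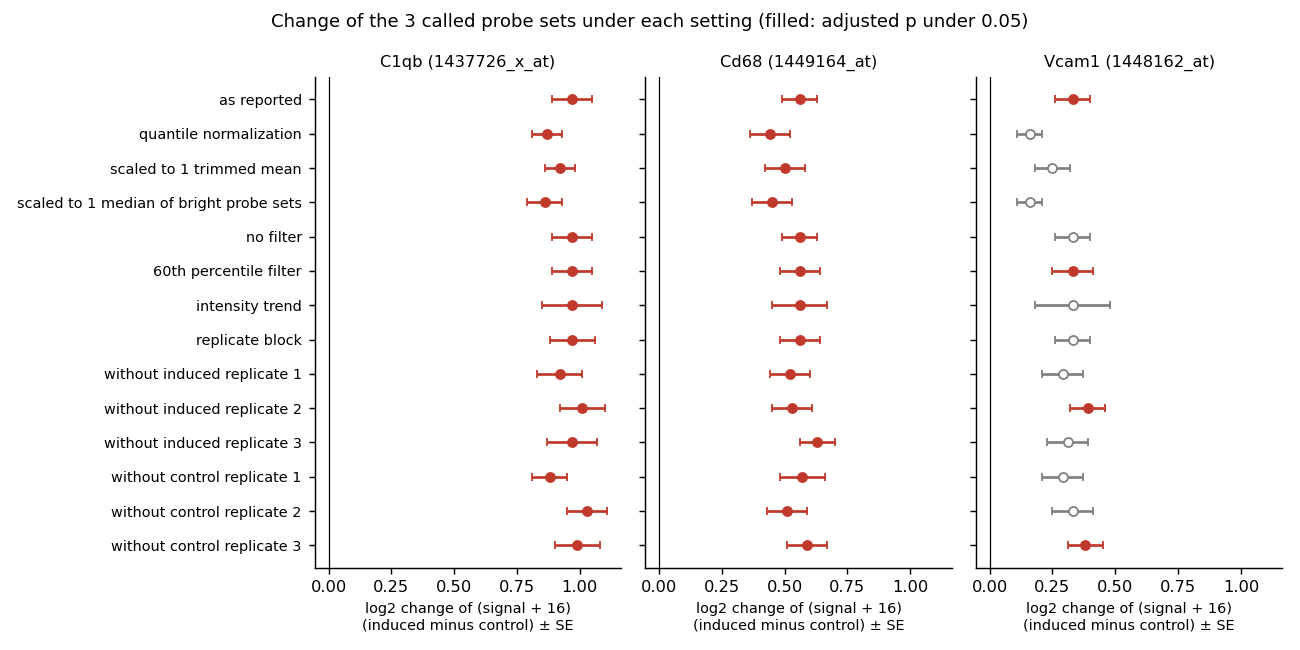
Log2 change of (signal + 16), induced minus control, with its standard error for the 3 called probe sets as reported and under 13 other settings; filled points have an adjusted p under 0.05. Pseudocounts of 1 and 64 change the scale and are not drawn; C1qb and Cd68 are filled in every row shown, though Cd68 lost its call at a pseudocount of 1, and Vcam1 is filled as reported, with the 60th percentile filter, and without induced 2 or control 3.

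Other genes of macrophages were called higher in part. Of 34 tested, 10 were higher and 0 lower (2 lower at an unadjusted p under 0.05), with a median log2 change of 0.08. Over all genes tested 5.14% were called higher and 1.82% lower, and the lists below are to be read against the same shares. Of the 8 with a mean signal over 10, 5 were higher, where 30.1% of all such genes were. Hmox1 passes that cut through the induced arrays, at 23.7 in induced arrays and 8.37 in controls. Adgre1, which encodes the macrophage antigen F4/80 and is listed under an older symbol in the deposited table, read 7.4, 4.9 and 6.4 in induced arrays and 1.2, 3.0 and 2.7 in controls. These groups were separate (log2 change 0.28, limma adjusted p = 0.0293), but the call was lost without any 1 array other than induced 2 (adjusted p up to 0.111). The Fc receptor gene Fcgr3 read 43.5, 45.5 and 51.8 in induced arrays and 10.8, 12.4 and 21.0 in controls (ratio 3.19, limma adjusted p = 0.000745). Ctsd, a lysosomal protease, had a ratio of 1.78 (adjusted p = 0.000778, but 0.0535 in 1 of 3 scalings), Hmox1, which breaks down haem, 2.83 (adjusted p = 0.000878) and Sirpa, the receptor for CD47, 1.61 (adjusted p = 0.00465). Pltp, a lipid transfer protein, had a ratio of 1.97 (adjusted p = 0.0162, but up to 0.0688 without any 1 array other than induced 2), and Cd14, a receptor for bacterial lipopolysaccharide, was at least 2.25-fold higher (adjusted p = 0.0179, but up to 0.0699 without induced 1, control 1 or control 3).

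Csf1r, the receptor for the growth factor that macrophages need, read 30, 28.1 and 23.6 in induced arrays and 18.9, 8.4 and 15.9 in controls by 1 of its 3 probe sets (limma, adjusted p = 0.0356). The other probe sets of Csf1r were not called, and the call was lost without any 1 array other than control 1 (adjusted p up to 0.105) and under each of 3 scalings (up to 0.191). Cd38, an enzyme of the cell surface, and Tlr4, the lipopolysaccharide receptor, complete the 10. Cd38 lost its call without any 1 array other than induced 3 (adjusted p up to 0.11) and in 1 of 3 scalings. Tlr4 lost its call without any 1 array (up to 0.145) and in 2 of 3 scalings. Calls in this list numbered 4 to 7 when 1 array was left out: 4 without induced 1 or control 3, 5 without control 1 or control 2, 6 without induced 3 and 7 without induced 2. They numbered 0 at a pseudocount of 1, 4 with no filter and 5 with the replicate number as a block, and 1 gene was called lower with an intensity trend, under 2 scalings and without control 1. The brightest members not called were Ctsb, another lysosomal protease, at 56.6 in induced arrays and 49.2 in controls, and Lamp1, a lysosomal membrane protein, at 39.7 in induced arrays and 46.8 in controls. Slc40a1 encodes ferroportin, the iron exporter of island macrophages. It read 32.4, 16.7 and 20.8 in induced arrays and 17.3, 27.8 and 14.9 in controls, which overlapped (adjusted p = 0.837). Spic, Cd5l and Timd4, further markers of iron-recycling and tissue macrophages, were near background with signals of 0.1 to 4.8 in induced arrays and 0.0 to 4.5 in controls, and none was called. At an unadjusted limma p under 0.05, 11 genes of this list were higher and 2 lower. The 2 lower were Cd36, whose signals are given below, and Hpgd. Hpgd averaged 1.43 in induced arrays and 3.77 in controls, with overlapping groups (limma, unadjusted p = 0.0417).

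In the rest of the complement system 5 of 25 tested genes were higher and 0 lower (1 lower at an unadjusted p under 0.05), against 5.14% higher over all genes tested. The median log2 change of the list was 0.03, and 18 of 34 on the array were at or under background throughout. C1ra and C1s1, which encode the proteases that bind to C1q, read at most 0.2 in induced arrays and 1.0 in controls and were not tested. Itgb2, the beta chain of complement receptors 3 and 4, read 47.3, 46.1 and 49.9 in induced arrays and 19.3, 21.3 and 21.4 in controls (log2 change 0.80, limma adjusted p = 5.09e-05). Cfp, properdin, read 30.5, 26.3 and 17.4 in induced arrays and 7.9, 8.0 and 12 in controls (adjusted p = 0.00820, and 0.0604 without control 2). The regulator Cr1l (adjusted p = 0.00723, but up to 0.0794 in 3 scalings), the surface protein Cd93 (0.0279) and Itgax, the alpha chain of complement receptor 4 (0.0393), were the others. Cd93 lost its call without induced 1, induced 3, control 1 or control 2 (up to 0.140) and Itgax without induced 1, induced 3, control 2 or control 3 (up to 0.160). Itgam, the alpha chain of complement receptor 3, was at or under background on all arrays. The brightest not called were C5ar1, a receptor for the C5a fragment, at 118.3 in induced arrays and 88.7 in controls (adjusted p = 0.201), and Cd59a, an inhibitor of the membrane attack complex, at 2.3 in induced arrays and 4.63 in controls (adjusted p = 0.304). Calls in the list numbered 2 without control 2 and 3 without induced 1 or induced 3.

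Of 34 tested genes for the uptake of dying cells, 5 were called higher and 0 lower (3 lower at an unadjusted p under 0.05). The median log2 change was 0.03, and over all genes tested 5.14% were called higher and 1.82% lower. After quantile normalization 3 were higher and 1 lower, and when scaled to 1 median of bright probe sets 3 were higher and 2 lower. Gas6, which bridges dying cells to MERTK and AXL, read 1.8, 1.7 and 1.0 in induced arrays and 3.3, 5.3 and 3.6 in controls, and the scavenger receptor Cd36 read 1.3, 0.0 and 1.2 in induced arrays and 2.1, 4.9 and 6.0 in controls. Both had separate groups without a call (adjusted p = 0.0833 for Gas6 and 0.0840 for Cd36). Thbs1, thrombospondin 1, which bridges dying cells to phagocytes, read 13.2, 8.1 and 7.4 in induced arrays and 0.0, 1.3 and 1.4 in controls, at least 4.78-fold higher (limma, adjusted p = 0.00321). Anxa1, annexin A1, read 171.7, 169.8 and 181.4 in induced arrays and 124.0, 103.8 and 135.4 in controls (adjusted p = 0.00802), a call lost under each of 3 scalings (up to 0.791). Itgav, the integrin alpha V chain, read 35.4, 40.2 and 36.4 in induced arrays and 21.4, 26.9 and 14.5 in controls (adjusted p = 0.0179; up to 0.0622 without induced 2 or induced 3, and up to 0.240 in 2 of 3 scalings). Lgals3, galectin 3, had an adjusted p of 0.000907, and Sirpa is given above. Calr and Cd47, the brightest not called, averaged 96.3 and 54.4 in induced arrays and 99.7 and 50.4 in controls.

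Of 16 tested genes for the contact between macrophage and erythroblast, 2 were called lower and 2 higher (median log2 change 0.02). Over all genes tested 1.82% were called lower and 5.14% higher. The lower count was 2 whichever array was left out, while the higher count was then 0 or 1. The higher count was also 0 when scaled to 1 median of bright probe sets, at a pseudocount of 64 and with no filter. Tfrc, the transferrin receptor of erythroblasts, read 45.6, 38.9 and 36.4 in induced arrays and 249.8, 299.3 and 271.4 in controls (log2 change -2.36, limma adjusted p = 1.29e-06). Klf1, a transcription factor of red cells, read 7.3, 3.4 and 2.2 in induced arrays and 13.1, 12.8 and 20.5 in controls (adjusted p = 0.00985). Both are listed here for the erythroblast side of the contact, and which marrow cells carried their signals was not tested. Those called higher were Itgav and Palld, a protein of the actin skeleton, which lost its call without any 1 array (adjusted p = 0.0481 with all). The brightest not called were Cd44, a receptor for hyaluronan, at 38.2 in induced arrays and 22.8 in controls (adjusted p = 0.0621), and Itga4, the VLA-4 chain that binds VCAM1, at 32.6 in induced arrays and 23.7 in controls (adjusted p = 0.0659). Summed over the list, signals were 161.5 to 202.9 in induced arrays and 346.0 to 419.5 in controls, but Tfrc carried that difference, and without it they were 125.1 to 157.3 in induced arrays and 96.2 to 120.2 in controls.

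Some markers of other cells that also make some of these genes were called as well. Their counts over tested genes stand beside 5.14% of all genes tested called higher. Among genes with a mean signal over 10, 30.1% were higher over the array. Of such genes in these lists, 3 of 3 stromal, 1 of 1 endothelial and 4 of 4 dendritic were higher. Col1a2, H2-Aa, H2-Ab1 and H2-Eb1 pass that cut through the induced arrays, as their control means were 6.2, 8.03, 6.57 and 5.07. Among 17 stromal genes 4 were higher and 0 lower (0 also at an unadjusted p under 0.05): Vcam1 itself, Col1a1 (adjusted p = 0.0554 without control 3), Col1a2 and Cxcl12, the chemokine of niche stroma, which read 11.4, 11.3 and 10.5 in induced arrays and 2.8, 6.7 and 2.7 in controls (limma, adjusted p = 0.00906). The list's summed signal, Vcam1 included, was 105.7 to 143.1 in induced arrays and 52.1 to 73.4 in controls, and 10 of the 17, with Lepr, Kitl and Pdgfrb among them, were at or under background on all arrays. Of 15 tested endothelial genes Vcam1 alone was called, with the losses given above, 10 of 16 were at or under background, Cdh5 among them, and Pecam1 averaged 1.5 in induced arrays and 1.9 in controls. Among dendritic cell genes 5 of 13 were higher and 0 lower (0 also at an unadjusted p under 0.05), namely Cd74, H2-Aa, H2-Ab1, H2-Eb1 and Itgax, with a summed signal of 178 to 217.5 in induced arrays and 64.9 to 71.3 in controls. Cd74 and the H2 genes, which serve antigen presentation on MHC class II and are also made by B cells and macrophages, carried that sum, and without these 4 it was 18 to 21.8 in induced arrays and 11.4 to 18.3 in controls. The narrower markers Zbtb46, Batf3, Siglech, Flt3, Cd209a and Bst2 were not called, and they did not move alike. Zbtb46 read 4.3, 7.1 and 5.0 in induced arrays and 0.2, 2.8 and 2.6 in controls, with separate groups (limma, adjusted p = 0.0804). Bst2 averaged 3.13 in induced arrays and 4.83 in controls. Batf3 averaged 0.2 in induced arrays and 1.77 in controls, near background. The part of these cells in the signals of C1qb, Cd68 and Vcam1 was not tested.

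Of 18 monocyte genes tested, 1 was higher and 3 lower (median log2 change -0.03), and 6 were lower after quantile normalization and when scaled to 1 median of bright probe sets. For this list and the others of this paragraph, the shares over all genes tested were 5.14% higher and 1.82% lower. The summed signal was 1522.3 to 1789.3 in induced arrays and 1483.6 to 1805.4 in controls, most of it from Lyz1 and Lyz2, and without these it was 211.8 to 252.4 in induced arrays and 175.3 to 221.7 in controls. That remainder still holds Ccl9, which averaged 99.8 in induced arrays and 27.5 in controls. The remainder therefore does not show the direction of the other monocyte genes. Ccl9, a chemokine, was higher (ratio 3.63, limma adjusted p = 1.54e-05). F13a1, coagulation factor XIII, read 5.9, 8.6 and 4.7 in induced arrays and 24.7, 34.0 and 34.3 in controls (adjusted p = 0.00027), and Fn1, fibronectin, and Ms4a3 were the others lower, Ms4a3 with an adjusted p of 0.0291 and up to 0.116 without any 1 array other than control 1. Ccr2, the receptor that lets monocytes leave the marrow, averaged 15.2 in induced arrays and 22.9 in controls, and Lyz2, lysozyme, 469.5 in induced arrays and 437 in controls, neither called. Neutrophil genes had 3 of 14 higher (5 without induced 2, 1 without control 1 or control 2) and 4 lower, osteoclast genes 0 of 8 called by limma, 0 with an intensity trend and 0 at an unadjusted p under 0.05, and B cell genes 2 of 9 higher (4 without control 1), Ighm and Cd79b, with a further Ighm probe set called lower. Among 24 companion genes with several probe sets that were looked at, Ighm was the only one with calls in opposite directions.

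**Figure D4:**
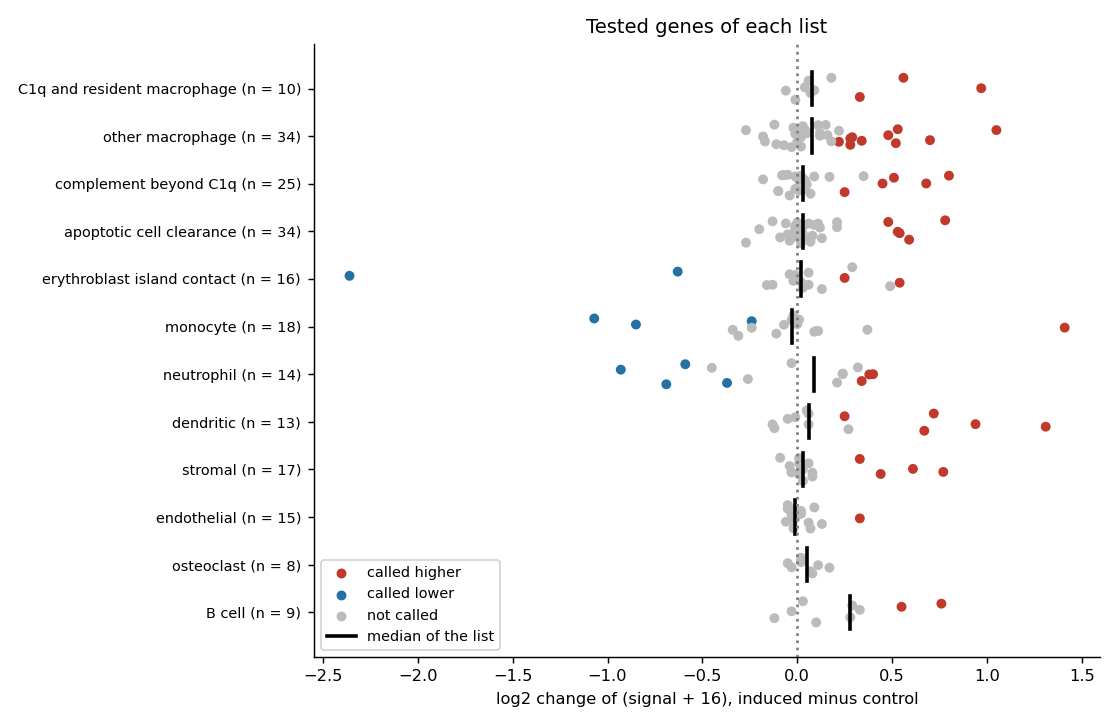
Log2 change of (signal + 16), induced minus control, of each tested gene in the C1q and resident macrophage genes and 11 companion lists, with the number of genes in parentheses and the median as a black bar. Calls of the 4 lists at the top of the plot all lie to the right of 0, with medians of 0.03 to 0.08, and the lower calls are in the erythroblast island, monocyte and neutrophil lists.

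The profile of C1qb 1437726_x_at over the 6 arrays was compared with 1912 other genes with a mean signal over 10. The closest by Pearson r on the log2(signal + 16) scale were Rap1b and Spp1 (r = 0.999 each), Erh (0.998), Hacd3 (0.997), Clic4 and Gcnt1 (0.996 each), and Ccl9 and Prg2 (0.994 each). All points share the split into induced and control arrays, and 435 of the 1912 genes had an r over 0.9, so the order describes these 6 arrays only. Spp1, osteopontin, read 40.5, 29.0 and 32.0 in induced arrays and 0.1, 4.0 and 3.6 in controls. Like C1qb, Spp1 was highest in induced 1 and lowest in control 1. These are also the arrays with the highest and the lowest summed signal, 278500 and 189287. Rap1b was likewise highest in induced 1 (332.3) and lowest in control 1 (98.2), so the order is not particular to C1qb and Spp1. The part of summed signal in these r values was not tested. Within the chosen genes the r with that profile was 0.94 for Vcam1 1448162_at and 0.93 for Cd68, 0.72 for C1qc, 0.56 for Mrc1 and -0.21 for C1qa. Of probe sets near background, C1qb 1417063_at had 0.87, Vcam1 1436003_at 0.82 and Siglec1 1422161_at 0.80.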

How the data were processed

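Whole marrow RNA was read on 6 Affymetrix arrays, grouped by the labels. The deposited signal intensity of each probe set, on a linear scale, was made by the authors with MAS5, per the submitters' processing notes. Its version and scaling are not given in the sources used here. Each probe set also has an unadjusted p-value and a ratio (control over induced) in the authors' deposited ANOVA table, per the file headers, and the ratio was inverted here. Genes were named from the 38011 probe sets with 1 symbol in that table, and old symbols were updated through RefSeq.

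Signals were used as deposited. After leaving out 64 control probe sets, those with a mean log2(signal + 16) over the 30th percentile (a signal of about 0.446) were tested in R 4.3.3 with limma 3.58.1 (lmFit, eBayes), with Benjamini-Hochberg adjustment over 31526 probe sets. In list counts each gene is read by its brightest probe set on that scale. The number of arrays limits the precision, and p-values measure the spread between pools. The genes, the 11 companion lists, the naming rule and the tests were chosen with earlier results of these data known, and background was set after the data were seen. Every probe set of the 10 genes is reported; of companion genes, the rule names those called (the 6 with the smallest p where more are called), the 2 brightest not called of each list, the markers Adgre1, Csf1r, Itgam, Ly6c1, Ccr2, Cxcl12, Pecam1 and Lyz2, and the 8 genes closest to the C1qb profile. The text gives part of these. Cd38, Tlr4, Slc40a1, Spic, Cd5l, Timd4, Hpgd, C1ra, C1s1, Kitl, Pdgfrb, Cdh5, Gas6, Cd36 and the uncalled dendritic markers other than Zbtb46 and Bst2 are not among these and were picked with their values known, and Ly6c1 was not analysed here. Adjusted p-values given without a tool are limma's.

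The test was tried on simulated signals of 31526 probe sets. It called 29% of 100 probe sets with a 2-fold change and 75% of 100 with a 4-fold change, all with a mean signal over 10, and 5.45% of calls were false. The simulated noise was independent between probe sets and held no shift of whole arrays or groups. The real signals shifted by a median of 0.24 in bright probe sets, so these shares need not hold for them. Same-numbered arrays did not deviate together from their group means (r of 0.01 to 0.06 over 2868 probe sets), so the replicate number was not used as a block in the main fit. Alternatives are given in the closing section. Figures were drawn with matplotlib 3.10.9.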

Additional observations from a re-analysis of the deposited data

How the results depend on the processing

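C1qb 1437726_x_at was called higher under all 15 alternatives with a fit of single probe sets (adjusted p up to 0.012), and Cd68 under 14 of them, losing its call at a pseudocount of 1 (log2 change 1.30, adjusted p = 0.156). Vcam1 1448162_at was called under 3 of them. It lost its call in every scaling (up to 0.110), at pseudocounts of 1 (0.585) and 64 (0.0547), with no filter (0.0915), with an intensity trend (0.263), with the replicate number as a block (0.0554) and without 4 of the 6 arrays, and its log2 change stayed above 0 in all 15. Genes called higher among the 10 numbered 1 at a pseudocount of 1, and 2 to 3 when 1 array was left out. Averaging a gene's probe sets first left 2. With the block, 2 were called, against 3 without it. Over the array, 1320 probe sets were called higher and 427 lower, against 975 and 853 after quantile normalization, 863 lower when scaled to 1 median of bright probe sets, 110 and 101 at a pseudocount of 1, 801 higher at 64, and 595 and 246 with no filter. Leaving out 1 array gave 879 to 1363 higher and 277 to 437 lower, with the fewest higher without control 2 and the fewest lower without induced 3. At a pseudocount of 1 the companion lists had 0 or 1 gene called higher each. With no filter 4 other macrophage, 2 complement and 3 clearance genes were higher, against 10, 5 and 5. With the block these were 5, 3 and 5. Neutrophil genes called lower numbered 7 after quantile normalization, against 4. As deposited 75.6% of calls were higher, against 53.3% after quantile normalization, 63.5% when scaled to 1 trimmed mean and 51.2% to 1 median of bright probe sets. For Vcam1 1415989_at, near background, the fit gave a log2 change of -0.01, while the ratio of the authors' deposited table came to 0.48 on the log2 scale (unadjusted p 0.0342). The cause of these differences was not tested. Most of the 18 probe sets read at or near background, which limits what a lack of calls can show.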
